A study of Mus musculus with 4 samples.

Results

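A set of 232 probes was well above background in every spot in resting RAW264.7 macrophages at 0 h and in no spot after 4, 8 or 16 h with CpG ODN, and 39 of them were mRNA probes and 193 were lncRNA probes. They were chosen from the readout itself by 2 conditions. Every spot of the probe had to be well above background, in the scanner's own flag, at 0 h and none at 4, 8 or 16 h, and the 16 h value had to lie more than 2 below the 0 h value on the log2 scale, which is 4-fold. They come from 96963 probes, of which 70922 had every spot well above background at 0 h and so could be chosen. The members made up 0.327% of these, 0.127% of the 30676 mRNA probes and 0.48% of the 40246 lncRNA probes. Because the flags and the difference chose the members, their loss after stimulation is a description with no test.

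RAW264.7 is a virus-transformed line of mouse macrophage-like cells. ODN1826 is a short synthetic DNA that carries unmethylated CpG motifs. Cells treated with 1 µM ODN1826 were harvested after 0, 4, 8 or 16 h, the 0 h cells being labelled with the same treatment and serving as the resting state. Total RNA of each time point was labelled with Cy3 and hybridized to 1 Agilent mouse lncRNA array, so there was no replicate array, no error between cultures could be measured and no p-value is given. No time-matched culture without ODN was analysed here, so time in culture and stimulation cannot be told apart.

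CpG DNA is bound by TLR9 in the endosomes of macrophages, which signals through MyD88 to NF-κB and the MAP kinases. Activated macrophages switch on cytokine genes and at the same time lower many transcripts of the resting state. lncRNAs are often expressed at low levels and in particular cell types or states, and only a minority have a known role. In RNA from a whole culture, fewer cells with a transcript and less of it in each cell cannot be told apart.

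The mRNA probes carry no gene name in the deposited files. The mRNA members are therefore given by class, and the lists of macrophage markers, resting macrophage genes, TLR9 pathway genes, mitotic genes and inflammatory effectors (162 genes in all lists) could be matched to 0 members. For the same reason the macrophage identity of the culture was not checked against its markers here. Of the lncRNA members, 84 were RIKEN cDNA clones, 82 were NONCODE transcripts, 26 were predicted RefSeq noncoding transcripts and 1 was an ultraconserved element. Only 11 of the 232 matched a gene of the RefSeq table of GRCm38.p6, 9 predicted RefSeq transcripts and 2 RIKEN clones, and all 11 are annotated as lncRNA genes. The function of these genes is not known from the table.

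The 5' ends of 3 of the matched genes are shown because they hold the promoter DNA of genes whose probes met the rule, where transcription factors could bind. Meeting the rule does not show that the transcript was gone. Each window holds 250 bases before and 50 bases after the start site, from RefSeq on GRCm38.p6. Capitals mark a match to a motif. Gm40913 (chr13:37333475-37333774, plus strand) and Gm41056 (chr13:108401817-108402116, plus strand) had the highest lower bounds on their fold among the matched genes. The window of Gm32100 (chr16:11583456-11583755, plus strand) holds the letters of the TATA box on the minus strand, from base 119. Whether they act as a TATA box was not tested.
Gm40913: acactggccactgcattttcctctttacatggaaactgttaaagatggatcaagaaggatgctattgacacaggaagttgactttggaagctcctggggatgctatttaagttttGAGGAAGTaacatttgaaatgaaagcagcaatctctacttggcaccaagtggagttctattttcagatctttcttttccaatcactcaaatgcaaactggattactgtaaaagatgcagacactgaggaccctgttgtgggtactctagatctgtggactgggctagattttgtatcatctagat
Gm41056: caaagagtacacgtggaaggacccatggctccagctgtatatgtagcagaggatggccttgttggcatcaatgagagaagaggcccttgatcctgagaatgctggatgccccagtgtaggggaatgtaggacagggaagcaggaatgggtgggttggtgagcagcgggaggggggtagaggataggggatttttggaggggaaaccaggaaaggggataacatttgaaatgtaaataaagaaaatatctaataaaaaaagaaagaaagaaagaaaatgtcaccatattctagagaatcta
Gm32100: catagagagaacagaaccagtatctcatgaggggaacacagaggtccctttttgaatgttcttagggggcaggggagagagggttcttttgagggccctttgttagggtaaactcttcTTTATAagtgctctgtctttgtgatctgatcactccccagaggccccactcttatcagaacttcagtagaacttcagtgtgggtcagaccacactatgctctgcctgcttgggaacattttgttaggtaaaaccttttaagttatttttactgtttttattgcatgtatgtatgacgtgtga

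In all, 9 of the 11 matched genes had a window, and Gm36185 had 2, which gave 10. Both strands were searched. The core motif of PU.1, GAGGAAGT, the factor that directs macrophage genes, stood in 1 of the 10 windows, that of Gm40913, and in 3.20% of the 32851 promoters of the table. The TATA box, TATAAA, stood in 1 of the 10, that of Gm32100 on the minus strand, and in 13.6% of all promoters. The NF-κB consensus stood in 0 of 10 and in 8.46% of all, and the SP1 box, GGGCGG, in 0 of 10 and in 35.7% of all. The 10 windows had a median of 44.5% G and C and of 4 CpG, beside 52.7% and 7 in all promoters. The motif shares were not adjusted for this. No match overlapped another in these windows. No match says only that these letters are not in the window, and a match does not show binding.

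Most members were dim at 0 h. Their values, on the log2 scale and relative to the 75th percentile of all probes on the array, ran from -5.08 to -1.55 with a median of -4.21 for mRNA and from -5.28 to -0.14 with a median of -4.53 for lncRNA. The lowest probe with every spot well above background at 0 h stood at -5.36, so a large part of the members lay close to the limit of detection. At 4, 8 and 16 h the medians were -5.96, -6.66 and -7.13 for mRNA members and -6.30, -6.64 and -7.12 for lncRNA members. Relative to 0 h the median log2 differences were -1.79, -2.69 and -2.50 for mRNA and -2.10, -2.27 and -2.46 for lncRNA at these times. Values under the detection limit have no order, so the course from 4 to 16 h is not read from them. A lncRNA clone, F530205L14, differed from 0 h by 0.01 on the log2 scale at 4 h, so the flag and not the intensity separated its 0 h and 4 h values.

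**Figure D1:**
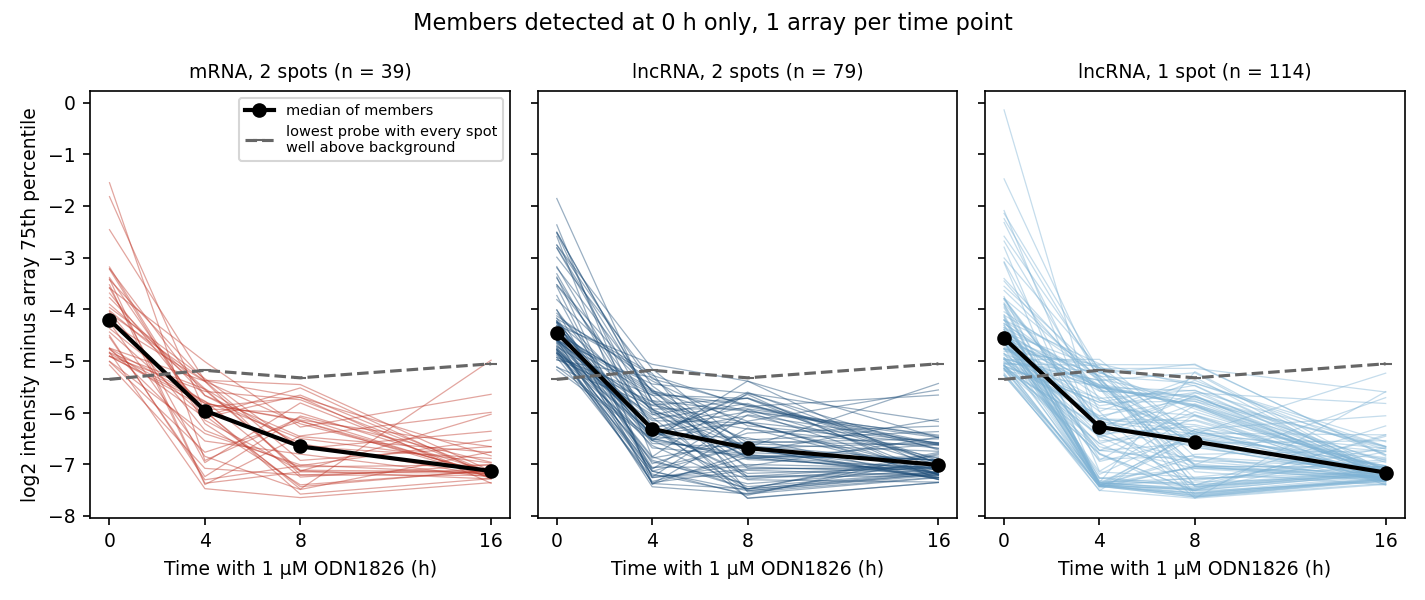
Value of each of the 232 members (thin lines) against hours with 1 µM ODN1826, in log2 units relative to the array's 75th percentile, for 39 mRNA probes, 79 lncRNA probes with 2 spots and 114 lncRNA probes with 1 spot. Black points are medians over members and the dashed line is the lowest probe with every spot well above background, near which most 0 h values start and under which nearly all later values lie.

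Because a probe under background has no measured level, each fold is a lower bound: the 0 h value is set against the detection limit of the later array, or against the later value of the probe itself where that is higher. The detection limit is the lowest value of a probe with every spot well above background. At 4, 8 and 16 h the median bounds were 1.97-fold, 2.18-fold and 1.80-fold for mRNA members, and 1.57-fold, 1.74-fold and 1.44-fold for lncRNA members. The smallest of the 3 bounds was over 2-fold in 68 members, 18 mRNA and 50 lncRNA. The bound at 4 h was over 4-fold in 28 members and that at 8 h in 32. The smallest of the 3 was over 4-fold in 24, of which 3 were mRNA and 21 lncRNA, and over 8-fold in 5, of which 2 were mRNA and 3 lncRNA. At 16 h 25 members, 1 mRNA and 24 lncRNA, had no bound over 1, because the lowest value detected on that array was as high as their 0 h value. Although the rule asks for a 4-fold difference, only 24 members had lost at least that much by this bound at each time, and how much the others lost was not measured. The differences also moved with the signal and its correction. With normexp and an offset of 50 on the median spot signal, which raises dim values, D230014K18 alone kept a difference under -2 at 16 h (-2.92), and 15 members kept one under -1, 3 mRNA and 12 lncRNA. A difference under 0 was left in 222 of the 232. The same spots had chosen the members by their fall at 16 h, so this sign is largely fixed and is no support.

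**Figure D2:**
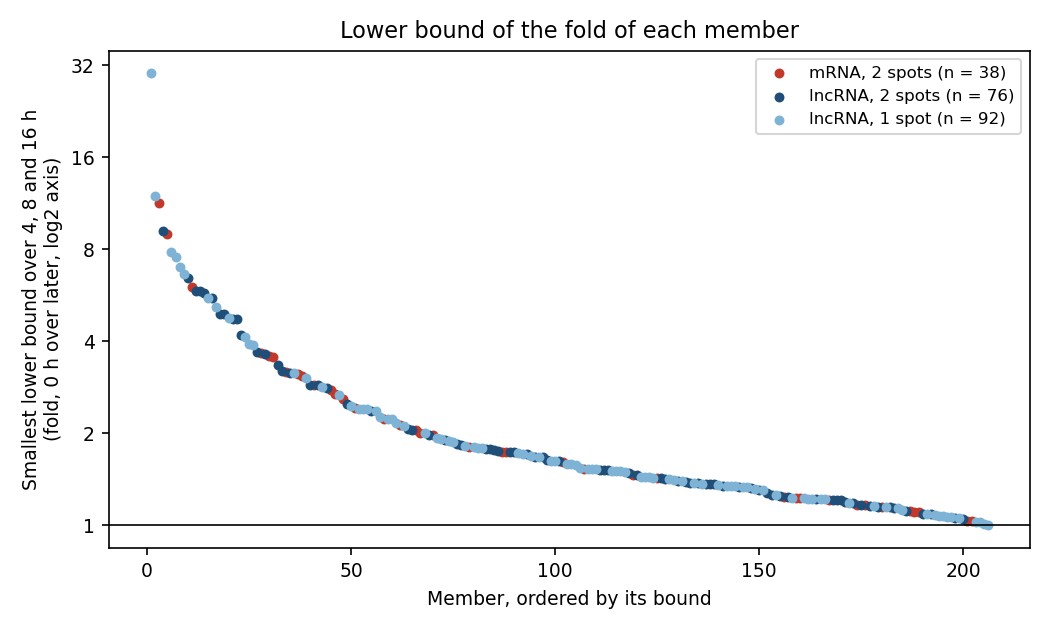
Smallest lower bound of the fold over 4, 8 and 16 h (0 h over later, log2 axis) for the 206 members where it was over 1, ordered from the highest. The line of points starts at D230014K18 with 30.1-fold and most members lie under 2-fold.

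D230014K18, a RIKEN cDNA clone with 1 spot, had the highest bounds. Its intensity was 481 at 0 h and then 5.82, 4.05 and 3.31, the later values being under the well above background limit by the rule. It was at least 32.9-fold, 36.4-fold and 30.1-fold lower at 4, 8 and 16 h. A830043P12, also a RIKEN clone with 1 spot, had an intensity of 191 at 0 h and of 11.8, 3.48 and 2.6 later. It was at least 13.05-fold, 14.4-fold and 11.9-fold lower. No second spot checks either clone.

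XR_865599.1, a predicted RefSeq noncoding transcript, had 2 spots that read 144 and 149 at 0 h. Its mean intensity of 146 went to 8.24, 2.44 and 2.69, which was at least 10.0-fold, 11.1-fold and 9.18-fold lower. Among lncRNA members with 2 spots it had the highest bound. NONMMUT052121, a NONCODE transcript, had spots of 92.0 and 115 at 0 h and mean intensities of 103, 4.34, 9.99 and 6.09 at 0, 4, 8 and 16 h. Its bounds were 7.04-fold, 7.78-fold and 6.45-fold.

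XR_864177.1 and NONMMUT002029 had like bounds. The spots of XR_864177.1 read 94.3 and 91.9 at 0 h, and its mean intensities were 93.1 at 0 h and 9.25, 5.35 and 5.32 later. The spots of NONMMUT002029 read 96.2 and 90.0 at 0 h, and its later intensities were 9.11, 4.78 and 4.58. Their bounds at 16 h were 5.84-fold and 5.83-fold. By the rule, no later spot of either was well above background.

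The other 4 lncRNAs named by their bounds had 1 spot each. A830081N17 read 125 at 0 h and 5.37, 5.84 and 5.09 later, at least 7.81-fold lower at 16 h. I1C0024L01 read 120 at 0 h and 13.8, 5.79 and 11.6 later, at least 7.52-fold lower at 16 h. NONMMUT058132 read 112 at 0 h and 12.4, 3.78 and 2.89 later, and C130040E15 read 106 at 0 h and 7.95, 2.44 and 9.08 later. They were at least 7.0-fold and 6.66-fold lower at 16 h. As the rule asks of every member, the single spot of these 4 was not well above background at any later time.

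Among mRNA probes the highest bounds belonged to A_55_P2007220 and A_55_P1969306. The spots of A_55_P2007220 read 182 and 180 at 0 h, and its mean intensity of 181 went to 4.14, 7.23 and 2.92, at least 12.4-fold, 13.7-fold and 11.3-fold lower. The spots of A_55_P1969306 read 140 and 161 at 0 h, and its mean intensity of 150 went to 8.00, 2.76 and 13.9. It was at least 10.3-fold, 11.4-fold and 8.97-fold lower. Its 16 h value lay over the detection limit of that array and set its bound, although neither spot was marked well above background. The next 8 mRNA members in this order had smallest bounds of 2.88-fold to 6.04-fold, so 3 mRNA members in all passed 4-fold.

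The members with a gene name had lower bounds. Gm40913 had spots of 53.7 and 48.5 at 0 h and mean intensities of 51.0, 3.29, 3.61 and 3.33 at 0, 4, 8 and 16 h, at least 3.20-fold lower at 16 h. In the gene table it lies between F13a1, the A subunit of coagulation factor XIII that macrophages also make, and Ly86, the partner of the Toll-like receptor relative CD180. F13a1 is 283 kb away and Ly86 3.35 kb. Gm41056 had spots of 58.1 and 43.6 at 0 h and mean intensities of 50.3, 6.60, 2.45 and 2.69, at least 3.16-fold lower at 16 h. It lies between Depdc1b and Pde4d, a cAMP phosphodiesterase. These neighbours are named for position only, since their own mRNA probes could not be identified here.

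Gm36185 overlaps Cit, a kinase of cytokinesis, and had intensities of 28.0, 9.01, 4.16 and 4.48, at least 1.76-fold lower at 16 h. Gm40934 overlaps Rnf144b, a ubiquitin ligase gene, with a bound of 1.52-fold at 16 h, and Gm32100 overlaps Snx29, a sorting nexin gene, with 1.49-fold. Gm30596 overlaps Cobl, an actin nucleator gene, with 1.46-fold. The strand of these overlaps was not analysed. 4930423B08Rik, between Rhobtb1 (34.6 kb away) and the mitotic kinase gene Cdk1 (6.9 kb), had 1.35-fold. Gm40386, between Prps1l1 (52.4 kb) and Snx13 (3.48 kb), had 1.26-fold. Gm33187, between Ski (17.7 kb) and Faap20 (3.02 kb), had 1.14-fold at 16 h. Gm32128, between Ppp2r5a (23.5 kb) and Dtl (115 kb), and 4930529L06Rik, between Ncam2 (3055.5 kb) and Mrpl39 (33.1 kb), had 1.09-fold each. Thus 9 of the 11 named genes had bounds under 2-fold at 16 h.

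The 39 mRNA probes all had 2 spots, while 79 of the lncRNA probes had 2 and 114 had 1. The share of lncRNA probes lost was 0.303% (79 of 26056) among those with 2 spots and 0.803% (114 of 14190) among those with 1 spot, beside 0.127% of mRNA probes. A probe with 1 spot needs 1 flag at each time where a probe with 2 needs both. By source, RIKEN clones had 84 of 11600 eligible probes lost (0.724%), NONCODE transcripts 82 of 20440 (0.401%) and predicted RefSeq transcripts 26 of 7401 (0.351%). Among probes with 2 spots RIKEN clones had 0.276% and NONCODE transcripts 0.298%, and among those with 1 spot 0.928% and 0.650%. RIKEN clones thus had the higher share of both sources with 1 spot and not with 2.

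The share also followed the 0 h value. At or under -4, 1.00% of eligible mRNA probes (23 of 2289), 1.5% of lncRNA probes with 2 spots (58 of 3870) and 4.26% of those with 1 spot (88 of 2068) were members. Above -4 the shares were 0.0564%, 0.0947% and 0.214%. None of the probes above the 75th percentile of the array at 0 h was a member, 0 of 15749, 0 of 5353 and 0 of 3226. Dim probes were more common among lncRNAs, since 14.9% of eligible lncRNA probes with 2 spots, 14.6% of those with 1 spot and 7.46% of mRNA probes lay at or under -4. With 2 spots, the order of mRNA and lncRNA probes varied with the 0 h value. The mRNA share was higher from -4 to -3.5 (0.530% against 0.231%, 7 and 5 members) and from -3.5 to -3 (0.429% against 0.224%, 6 and 5 members). It was also higher from -6 to -5 (1.32% against 0.958%) and from -2 to 0 (0.0294% against 0.0128%). All these bins held few members. The lncRNA share was higher from -5 to -4.5 (2.12% against 1.28%), from -4.5 to -4 (1.07% against 0.710%) and from -3 to -2 (0.216% against 0.0322%). The last of these rests on 10 lncRNA members and 1 mRNA member.

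**Figure D3:**
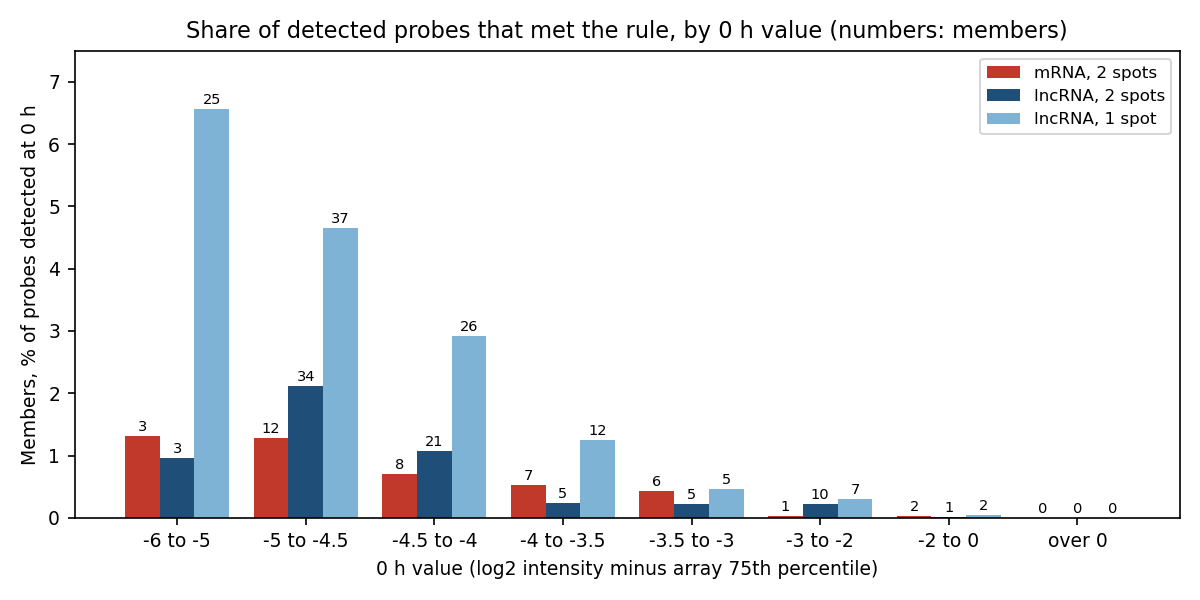
Members as a percent of probes with every spot well above background at 0 h, by 0 h value (log2 units relative to the array's 75th percentile), for mRNA probes and lncRNA probes with 2 or 1 spots. The numbers over the bars are members, and the tallest bar is that of lncRNA probes with 1 spot under -5, at 6.56% (25 of 381).

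The negative control spots, all of 1 design that matches no mouse transcript, give the background of the rule. Of 600 such spots 7 were well above background at 0 h and none of these 7 was at the later times, so all 7 met the rule, 1.17% of the 600, with 0 h intensities of 13.6 to 26.6. Read in the same way, with 1 spot per probe, 0.297% (first spot) and 0.341% (second spot) of all mRNA probes and 0.523% (each spot) of lncRNA probes with 2 spots met it, and 0.59% of lncRNA probes with 1 spot. Over spots with no flag at 4, 8 and 16 h, the share was 1.18% of control spots (7 of 591, exact 95% binomial interval 0.477% to 2.43%). It was 2.47% (2.04% to 2.96%) of lncRNA probes with 1 spot, 0.632% (0.450% to 0.864%) of mRNA probes and 0.845% (0.669% to 1.05%) of lncRNA probes with 2 spots, where both spots had to agree. With the first spot alone it was 1.67% (1.38% to 2.003%) of mRNA probes and 1.91% (1.66% to 2.19%) of lncRNA probes with 2 spots. The interval of the control spots rests on 7 spots of 1 design and is wide. It overlapped those of all these groups, which cannot show whether a group equals the background. The share of lncRNA probes with 1 spot, 2.47%, lay just above its upper end of 2.43%, but the interval of that group reached down to 2.04%. This does not show that the group exceeds the background. The intervals cover counting error only, and spots of 1 array are not replicates of a time point.

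At 0 h 86 members (37.1%) had every spot brighter than the brightest negative control spot of that array, 20 of 39 mRNA (51.3%) and 66 of 193 lncRNA (34.2%). Brighter than the brightest control spot on any of the 4 arrays, 70.3, were 22 members, 3 mRNA and 19 lncRNA. The 10 named lncRNAs and the 2 named mRNA probes were among the 22, while the 11 with gene names were not. The other 146 members had at least 1 spot within the range of the 0 h control spots.

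The rule asked for a flag in both spots at 0 h where a probe had 2, so their likeness at 0 h is partly fixed by it. The median difference between spots was 0.14 on the log2 scale for mRNA members, with a largest of 0.69, and 0.18 for lncRNA members, with a largest of 1.49. More than 2-fold apart were 0 of 39 mRNA and 2 of 79 lncRNA members (2.53%). Among all probes detected at 0 h within the members' range of 0 h values, the median difference was 0.12 for mRNA and 0.12 for lncRNA probes, and 0.425% and 0.637% were more than 2-fold apart. By these medians the spots of members lay no closer together than those of these wider sets. The sets include the members and were not matched to them on 0 h value within the range, so no more is read from this. Read spot by spot, 116 mRNA probes met the rule by their first spot and 31 of these by both, and 202 lncRNA probes with 2 spots met it by their first spot and 56 of these by both. None of the 350 member spots at 0 h was marked as an outlier, and the scanner's own error of a member at 0 h was 10.0% to 22.4% of its signal, with a median of 15.4%. These measures cover the array and not the culture.

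**Figure D4:**
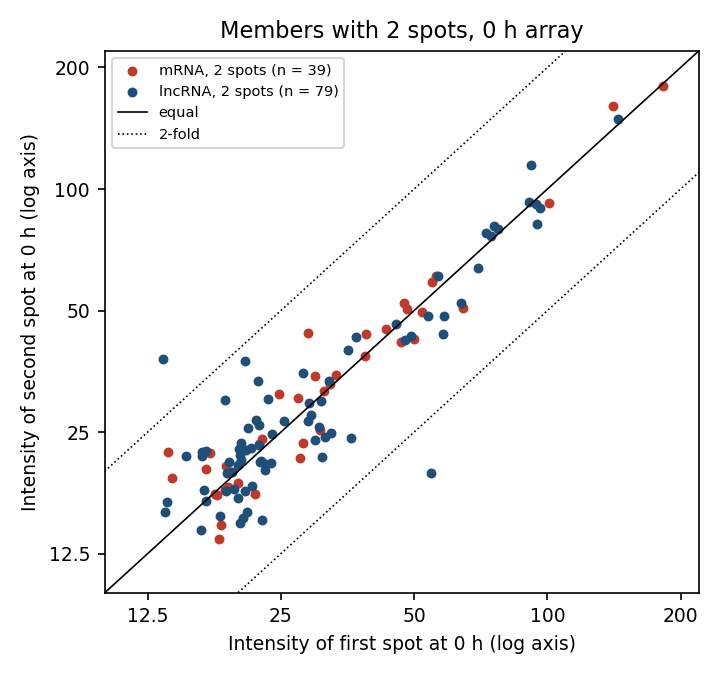
Intensity of the second against the first spot at 0 h (both log axes) for the 118 members with 2 spots, 39 mRNA and 79 lncRNA. The solid line is equality and the dotted lines are 2-fold, outside which lie 2 lncRNA probes.

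Not well above background did not mean no signal. The scanner also flags a spot as positive and significant, a weaker limit, which 34, 30, 28 and 23 of the 600 negative control spots passed at 0, 4, 8 and 16 h. At 4 h 187 members (80.6%) had a spot that passed it, at 8 h 189 (81.5%) and at 16 h 100 (43.1%). For mRNA members the shares were 89.7%, 87.2% and 56.4%, and for lncRNA members with 2 spots 87.3%, 84.8% and 57.0%. For lncRNA members with 1 spot they were 72.8%, 77.2% and 28.9%. At each of the 3 times 83 members passed it, and 17 passed it at none, 1 mRNA and 16 lncRNA. With the same number of spots, mRNA and lncRNA members kept similar shares. In most members some signal over the weaker limit was thus left at 4 and 8 h, and in fewer at 16 h. The rule set a limit on the difference at 16 h only, so the lower share at 16 h is partly fixed by it. Under -2 were 118 members at 4 h, 146 at 8 h and, by the rule, all 232 at 16 h. No time course is read from these shares.

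**Figure D5:**
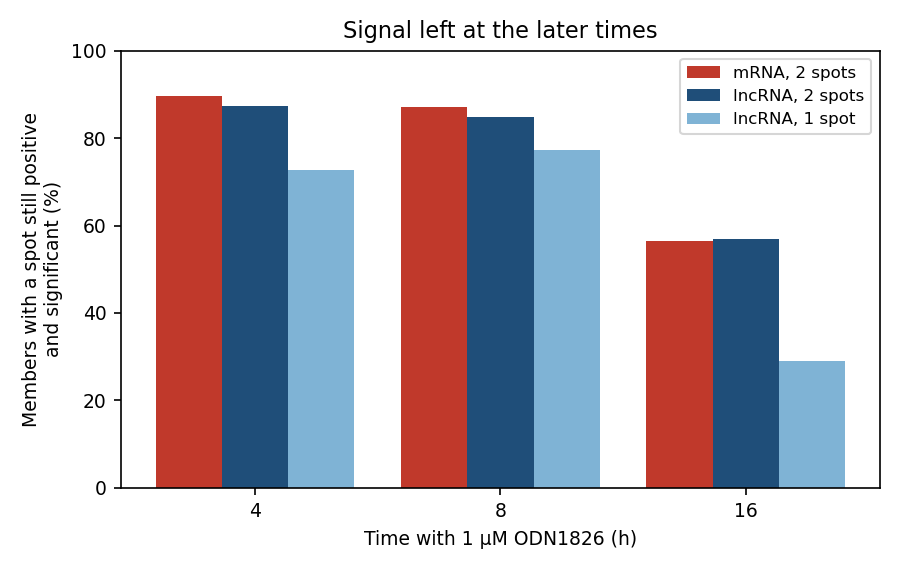
Percent of members with at least 1 spot that the scanner still marked as positive and significant after 4, 8 or 16 h, for 39 mRNA probes and for lncRNA probes with 2 spots (79) or 1 spot (114). The bars stand between 72.8% and 89.7% at 4 and 8 h and between 28.9% and 57.0% at 16 h, the only time with a limit on the difference.

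Loss of detection at all 3 later times was a small part of the decrease at 16 h. Of the probes detected at 0 h, 2328 (3.28%) had a 16 h value under the limit of -2, 1052 mRNA (3.43%) and 1276 lncRNA (3.17%). Of these, 1444 (62.0%) still had every spot well above background at 16 h, 804 of the mRNA probes (76.4%) and 640 of the lncRNA probes (50.2%). The members were 9.97% of them, 3.71% of the mRNA and 15.1% of the lncRNA probes. A further 546 were undetected at 16 h but had a spot well above background at 4 or 8 h. Together with the members, 778 of the 2328 had no spot well above background at 16 h, 202 mRNA and 576 lncRNA. Without the limit on the difference, 620 probes (0.874%, or 0.336% of mRNA and 1.28% of lncRNA probes) had every spot detected at 0 h and none later, and in 388 of them the 16 h value was not under the limit of -2. As these values lay under detection, the loss of those probes has only a bound.

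The detection flag was also lost at each time on its own. Of the probes detected at 0 h, 2.41% had no spot well above background at 4 h (1.19% of mRNA and 3.35% of lncRNA probes). At 8 h it was 1.85% (0.828% and 2.62%), and at 16 h 3.69% (1.98% and 5%). On the arrays themselves, the 75th percentile stood at an intensity of 531, 503, 493 and 440 at 0, 4, 8 and 16 h, and the lowest probe with every spot well above background at 12.9, 13.9, 12.3 and 13.2. The 16 h array had the lowest percentile and the highest detection limit relative to it. The part of these array differences in the counts was not tested.

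The same limits turned round, with no spot detected at 0 h, every spot detected at 4, 8 and 16 h and the 16 h value more than 4-fold higher, gave 176 probes, 70 mRNA and 106 lncRNA. This was 0.766% of the 22981 probes with no spot detected at 0 h, 0.978% of mRNA and 0.67% of lncRNA probes. Over probes with 2 spots, mRNA made up 33.1% of the lost set (39 of 118) and 50% of the gained set (70 of 140). Among all probes with 2 spots and a 16 h value under the limit of -2 the mRNA share was 58.7%. The probes with 2 spots that could enter were 7157 mRNA and 10689 lncRNA for the gained set. For the other 2 sets they were 30676 mRNA and 26056 lncRNA. The lost set thus held the smallest share of mRNA probes of these 3 sets. They use the same arrays but not all the same pool of probes, and were not tested against each other.

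At the limit itself, the mRNA members nearest to it had differences of -2.01, -2.02 and -2.06 on the log2 scale, and the nearest mRNA probes outside had -1.998, -1.99 and -1.97. The nearest lncRNA members, NONMMUT056937, NONMMUT051748 and NONMMUT008005, stood at -2.001, -2.003 and -2.003. Just outside were XR_887704.1 at -1.997, B930041H02 at -1.99 and NONMMUT057865 at -1.98. Members and nonmembers at the limit differed by less than the median difference between spots of a probe.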

How the data were processed

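Expression was measured on 4 Agilent 1-colour arrays, 1 per time point. The authors read the intensities with the software Feature Extraction of Agilent, version 10.7 per the labels and 11.5.1.1 per the file headers, and deposited them unscaled. It subtracts background within each array. A deposited table of log2 values, made in GeneSpring, equals averaged log2 intensities less a constant for each array (9.05, 8.98, 8.95 and 8.78 in order of time). It holds 231 of the 232 members. The filter behind it was not given in the sources used here.

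Here, control and outlier spots were dropped, the log2 intensities of each probe's spots were averaged, and the 75th percentile of each array was subtracted. Probes whose names start with A_ count as mRNA and all others as lncRNA. The 873 probes with NR_ accessions were left out by the rule. Detection means the scanner's flag of a spot well above background. Bounds used the lowest probe with every spot above background on the later array. There were 0 columns of other samples. The members and lists were chosen with earlier results of these data known. Named were, in each class, the 10 members with the highest smallest bound, and the 3 nearest to the limit on each side, with at most 2 mRNA identifiers printed because the files give these probes no gene name. The members matched to RefSeq genes are named as well, chosen after their values were seen. The gene table is of another build than the headers, so no position was carried between them. That table gave names, lncRNA annotation, neighbours and overlaps, and the RefSeq promoter table of GRCm38.p6 gave the windows printed. Normexp, planned on the mean signal, was run with an offset of 50 on the median signal, the column the files hold. The other alternatives changed the scaling, source of values, flags, limit, spots and times. The procedure was tested on simulated data, in which the lost probes were brighter at 0 h than most members and had no signal left later. That test does not cover the dim members. With 1 array per time point no test was made, and precision is limited by the number of arrays. Python 3.11.15, numpy 2.4.6, pandas 2.3.3, scipy 1.17.1 and matplotlib 3.10.9 were used, and R 4.3.3 with limma 3.58.1 for normexp.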

Additional observations from a re-analysis of the deposited data

How the results depend on the processing

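No paired analysis was possible because each time point had 1 array and the labels give no replicate numbers. With no replicate array, the number of lost probes depends on signal over background at 0 h and on the limits chosen. The cause of the changes below was not tested where the alternative does not state it.

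The fewest members were left by normexp with an offset of 50, which raises dim values and was run on the median spot signal, so that correction, offset and signal changed together. There 1 probe met the limit, 0 mRNA and 1 lncRNA (0% and 0.00248% of eligible probes). It was D230014K18, at -2.92 on the log2 scale at 16 h, while 222 of the 232 members were still under 0 and 15 under -1. The sign is largely fixed, since the same spots chose the members by their fall. Without the limit on the difference there were 620 members, 103 mRNA and 517 lncRNA (0.336% and 1.28%), with median bounds at 16 h of 1.26-fold for mRNA and 1.21-fold for lncRNA. With a limit of -3 there were 55, 12 and 43 (0.0391% and 0.107%), with 3.36-fold and 3.62-fold. With the limit of -2 at each later time there were 102, 15 and 87 (0.0489% and 0.216%), with 3.12-fold and 1.93-fold. With that limit on the bound at 16 h there were 24, 3 and 21 (0.00978% and 0.0522%), with 8.97-fold and 5.76-fold. Without the flags of the 4 h array there were 404, 92 and 312 (0.300% and 0.775%), with 2.05-fold and 1.70-fold, and without those of the 8 h array the lncRNA share was 0.559%. With 2 spots only, there were 118 members and 79 lncRNA (0.303%). Where 1 undetected spot sufficed at the later times, 69 mRNA probes were members (0.225%), and the lncRNA share was 0.586%. With any spot detected at 0 h the median mRNA bound was 1.40-fold.

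A pair of alternatives was chosen after seeing the data. With the first spot of each probe only there were 432 members, 116 mRNA and 316 lncRNA (0.372% and 0.769%). With the lowest value among probes with any spot detected as the floor, median bounds were 4.74-fold for mRNA and 3.92-fold for lncRNA. Quantile normalization gave 256 members, the percentile over detected probes 247, outlier spots kept 232 and NR_ probes included 236, all of which held the 232. The authors' deposited values gave 231, all of them members. In each setting run the lncRNA share was higher than the mRNA share when taken over all 0 h values, without matching their level.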
